A study of Homo sapiens with 8 samples.

Results

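The genes described here are 10 secreted antagonists, feedback regulators and transcription factors of the canonical WNT pathway: DKK1, DKK4, SFRP1, SFRP2, FRZB, AXIN2, NKD1, SP5, LEF1 and TCF7L2. They were chosen by name, as genes that the deposited combined transcript assembly names, and are 10 of the 29937 genes in its count table. Full-length transcripts were read with PacBio sequencing in 8 libraries of the established embryonic stem cell line H1, in 4 groups of 2 repeats. Undifferentiated cells (hPSC) were grown on Matrigel in mTeSR1. The other groups were collected after 5 days in media that contained mercaptoethanol and non-essential amino acids. Endoderm medium held 50 nM/ml WNT3A (the unit as the labels give it), 100 ng/ml Activin A and serum. Mesoderm medium held 100 ng/ml VEGF, 100 ng/ml BMP4, 10 ng/ml bFGF and serum, with 100 ng/ml Activin A on the opening day alone. Ectoderm medium held serum replacement and 2 µM each of the inhibitors A83-01, PNU-74654 and Dorsomorphin. All libraries share the one parental line, and the labels do not say whether repeats were separate cultures, so p-values measure the spread between these libraries, which may be technical.

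WNT ligands bind a Frizzled receptor and an LRP co-receptor, which stops the destruction of β-catenin, and β-catenin then works with TCF/LEF proteins on DNA. DKK1 and DKK4 block the LRP co-receptor, SFRP-type proteins (FRZB among them) bind WNT ligands outside the cell, and AXIN2 and NKD1 act inside it to dampen the signal. AXIN2, NKD1, SP5 and LEF1 are widely used as targets that the pathway itself turns on. WNT signals are used in culture to take pluripotent cells towards mesoderm and endoderm, and PNU-74654 is known as an inhibitor of the β-catenin and TCF interaction.

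Sequences are given for the pieces of LEF1 and TCF7L2 that differ between transcripts, because the shares below count transcripts with or without them. They were read from GENCODE 29 transcripts on GRCh38, in the direction of transcription. The LEF1 exon lies at chr4:108063623-108063663, minus strand. The TCF7L2 pieces lie on the plus strand of chromosome 10, at chr10:112964556-112964624, chr10:113158667-113158717, chr10:113159920-113159992 and chr10:113160619-113160691. Capitals in the last of them, at chr10:113143984-113144025, mark the 12 bases added when the later of a pair of splice donors is used.
LEF1 41-base exon: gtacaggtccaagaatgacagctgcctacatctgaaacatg
TCF7L2 69-base exon: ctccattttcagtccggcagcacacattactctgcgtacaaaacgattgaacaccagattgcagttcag
TCF7L2 51-base exon: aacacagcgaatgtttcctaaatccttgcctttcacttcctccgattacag
TCF7L2 first 73-base exon: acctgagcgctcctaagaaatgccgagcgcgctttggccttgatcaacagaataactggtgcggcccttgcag
TCF7L2 second 73-base exon: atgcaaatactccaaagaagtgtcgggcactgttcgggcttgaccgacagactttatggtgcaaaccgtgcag
TCF7L2 donor choice: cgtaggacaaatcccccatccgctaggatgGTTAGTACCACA

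Promoter windows from RefSeq (GRCh38.p14) were matched by symbol for 6 of the 10 genes and searched for the TCF/LEF core motifs CTTTGAA or CTTTGAT as well as CTTTGTT or CTTTGTA on both strands. The search covered 250 bases before to 50 after each start, and 13.8% of the 35116 windows of that length held at least 1 match. Of the 6 genes 3 held a match: DKK1, SP5 and, with 1 match in 1 of its 3 windows, TCF7L2. The stretches of DKK1 and SP5 are printed because their windows held more than 1 match, and capitals mark the matched letters. DKK1 held 2 matches at chr10:52314174-52314223, and SP5 held 3 at chr2:170715177-170715271, both on the plus strand. The SP5 window belongs to a start from which 3 of its 9 reads came, 1 of them in endoderm. The other 6 reads, all in endoderm, fell on a transcript with a later start. A match is a description of letters and not a site.
DKK1 promoter: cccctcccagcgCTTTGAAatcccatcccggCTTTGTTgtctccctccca
SP5 promoter: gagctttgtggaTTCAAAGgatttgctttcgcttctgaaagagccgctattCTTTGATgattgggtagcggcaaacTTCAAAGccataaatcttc

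Library totals ran from 503840 to 1180888 counts, the highest in ectoderm. The mean length of the assigned transcript per read was 4406 and 4650 bases in ectoderm and 3765 and 3840 in mesoderm. It was 3298 and 3114.5 in hPSC and 3073 and 2975 in endoderm, so this length cannot be told apart from layer. Levels are given as CPM, counts scaled to the library total, and a count of 0 allows up to 3 counts, which is 2.54 to 5.95 CPM depending on the library. Intervals and floors cover counting error only. The hPSC repeats were less alike than the others (Pearson r across genes 0.873, against 0.946 to 0.967). Of 7 ectoderm markers 6 had reads in both ectoderm libraries (summed level 1039 and 807.5 CPM). SOX1 was not among the genes that the assembly names. The list summed to 421.8 and 416.3 CPM in endoderm, mostly OTX2 (411.6 and 406, against 153.3 and 134.4 in ectoderm). Endoderm markers summed to 2271 and 2387 CPM in endoderm against at most 15.06 elsewhere, mostly CER1 (1663 and 2015 CPM in endoderm). There SOX17 had 150 and 16 counts and FOXA2 3 and 4. Of 8 pluripotent markers 5 fell in ectoderm, 4 in endoderm and 7 in mesoderm. NANOG and TDGF1 were not called in endoderm (edgeR adjusted p = 0.722 and 0.504). Mesoderm markers summed to 1058 and 1151 CPM in mesoderm against at most 213.5 elsewhere. By calls the list was not particular to mesoderm. Of the 5 tested against hPSC, 4 rose and 0 fell in endoderm, among them HAND1 and MIXL1. Of the 8 mesoderm markers, HAND1, TBX3 and BMP4 rose and KDR fell in mesoderm. TBXT had 1 and 0 counts there, and MIXL1 and FOXF1 were at 0 in both mesoderm libraries. MESP1 was not among the genes that the assembly names. All 11 genes of an amnion and trophoblast list, which shares HAND1 with the mesoderm list, had reads in both mesoderm libraries, with a summed level of 7385 and 8072 CPM against at most 116.1 elsewhere, and their part in the mesoderm values below was not tested. Differences were tested with edgeR's quasi-likelihood test over 10847 genes, 2 libraries against 2, with TMM scaling and Benjamini-Hochberg adjustment at 0.05. Because CPM uses library totals and the fit uses TMM, a fitted change can differ from the ratio of CPM in size, and it does in sign for TCF7L2 in ectoderm against hPSC and for SFRP1 in endoderm against mesoderm. Of the 10 genes 8 passed its low-count filter, and NKD1 and SP5 did not.

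**Figure D1:**
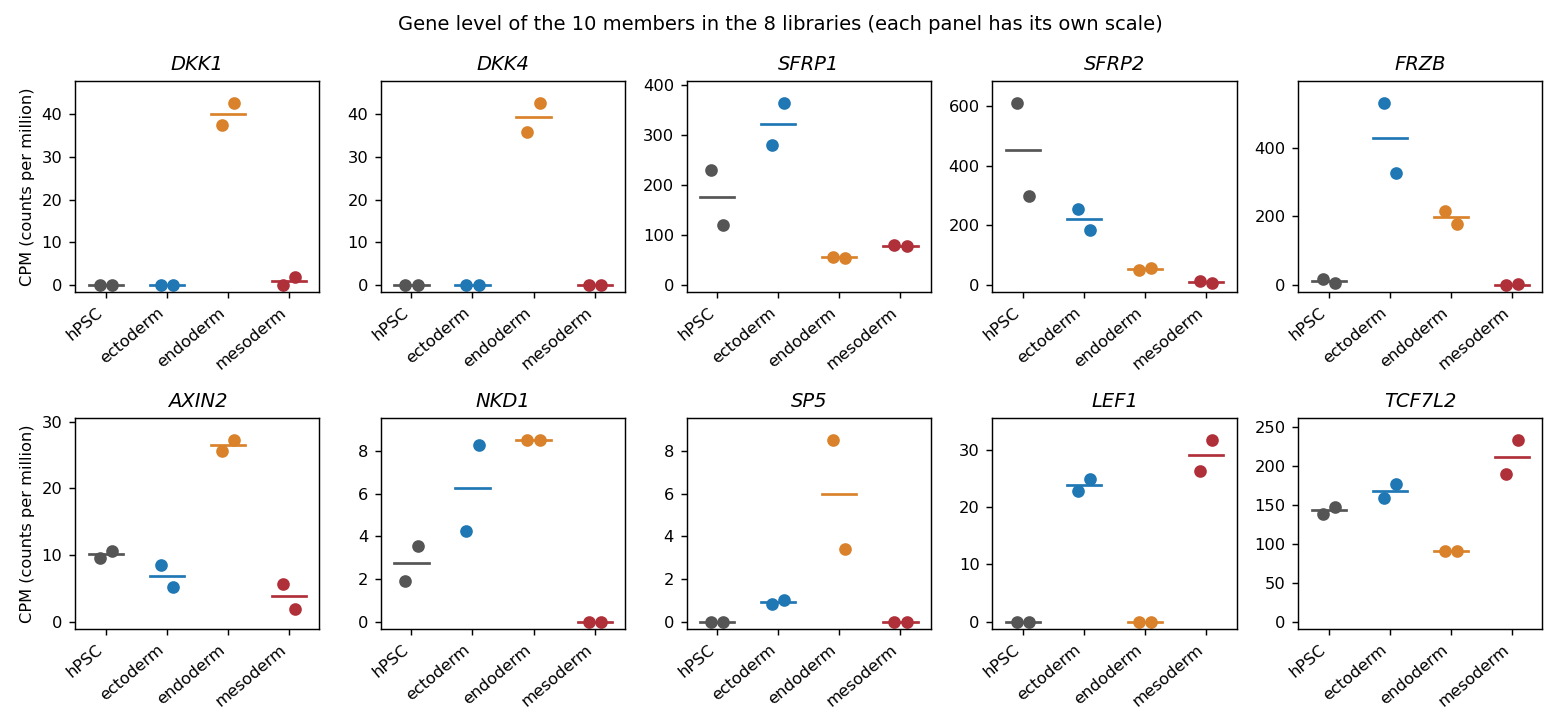
Level of each gene in CPM (vertical axis, from 0, a separate scale per panel) in the 8 libraries; points are libraries and bars are means of 2. DKK1, DKK4 and AXIN2 are highest in endoderm, FRZB and SFRP1 in ectoderm, SFRP2 in hPSC, and LEF1 has reads in ectoderm and mesoderm.

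In endoderm the LRP blockers DKK1 and DKK4 appeared, FRZB and AXIN2 rose, and SFRP1 and SFRP2 fell. These are 6 of 8 genes tested, where 27.2% of all genes tested were called (13.4% higher, 13.7% lower). In ectoderm FRZB and LEF1 rose and SFRP2 fell, 3 of 8 against 48.6% of all genes (23.8% higher, 24.8% lower). In mesoderm LEF1 rose while SFRP1, SFRP2 and FRZB fell, 4 of 8 against 35.1% of all genes (16.9% higher, 18.2% lower). DKK1, DKK4 and AXIN2 passed the low-count filter through endoderm alone, FRZB through ectoderm and endoderm, and LEF1 through ectoderm and mesoderm. SFRP2 passed through every group but mesoderm. Counts of members called, here and between layers, therefore depend on that filter and show nothing particular to these genes. The 3 comparisons share the hPSC libraries. In bulk RNA, fewer cells of a type and less RNA per cell cannot be told apart.

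DKK1 (ENSG00000107984.10, chr10:52314278-52317657) was read as a single transcript of 4 exons that matches the reference. Its counts were 22 and 25 in the endoderm libraries, 0 and 1 in mesoderm, and 0 in all 4 hPSC and ectoderm libraries. Endoderm stood apart from every other library, at 40.1 ± 3.59 CPM (SD, n = 2). The level was at least 6.94-fold higher than in hPSC and at least 12.9-fold higher than in ectoderm, against a floor of 3 counts per library (edgeR adjusted p = 0.000113 and 2.98e-06). Against mesoderm, with its 1 read, the ratio of pooled CPM was 41.5 (95% exact interval 7.1 to 1670, adjusted p = 7.56e-05). The single mesoderm read gave no call against hPSC (adjusted p = 0.415).

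DKK4, whose product acts on the same co-receptor, followed the same libraries. It lies on chromosome 8 and was also read as 1 reference transcript, with 21 and 25 counts in endoderm and 0 in the other 6 libraries. Its endoderm level was 39.3 ± 4.80 CPM (SD, n = 2). This was at least 6.80-fold above hPSC, 12.7-fold above ectoderm and 6.59-fold above mesoderm (edgeR adjusted p = 0.000156, 4.46e-06 and 6.04e-05). The genes with the most similar pattern over the 8 libraries were CXCR4 and IER3 for DKK1 (Pearson r = 0.999 and 0.993 of log2 CPM) and SLC5A9 and CER1 for DKK4 (both 1.000). With 6 libraries at or near 0, such values rest on the endoderm libraries. For every member the genes named are the highest of 10846 correlations over 8 libraries, so a high r shows no link.

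SFRP1, a secreted Frizzled-related protein, was found in all 8 libraries. Its level was 281.1 and 365.0 CPM for ectoderm, 231.1 and 121.0 for hPSC, 81.0 and 77.4 for mesoderm, and 56.4 and 54.6 for endoderm. The ectoderm libraries lay above all others and the endoderm libraries below all others, without overlap. SFRP1 fell in endoderm by 1.29 on the log2 scale (SE 0.33, edgeR adjusted p = 0.00999) and in mesoderm fell by 1.35 (SE 0.33, adjusted p = 0.00525). Endoderm and mesoderm, neighbours in this order, were not separated by the test, whose estimate pointed the other way from CPM (log2 difference 0.06, SE 0.35, adjusted p = 0.906). The endoderm call was lost without endoderm repeat 1 (adjusted p = 0.103) or repeat 2 (0.101), and the mesoderm call without mesoderm repeat 1 (0.0606) or repeat 2 (0.0746). The rise in ectoderm was 0.49 (SE 0.30, adjusted p = 0.191), but passed without hPSC repeat 1 (0.83, adjusted p = 0.0151) and with library totals as the scale (0.92, adjusted p = 0.0299). Against the other layers ectoderm was higher by 1.78 (endoderm, adjusted p = 0.000258) and 1.83 (mesoderm, adjusted p = 0.000465). PTPRZ1 and SOX2 had the patterns most like it (r = 0.982 and 0.980, 8 libraries), though both had 0 or 1 count in each endoderm and mesoderm library.

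SFRP2, a close relative of SFRP1, fell in every layer. Undifferentiated cells had 317 and 167 counts (610.4 and 297.1 CPM), and ectoderm had 302 and 180 (255.7 and 186.1 CPM). Endoderm had 30 and 34 (51.2 and 58.0 CPM) and mesoderm 7 and 3 (13.2 and 5.95 CPM). The 4 groups did not overlap, in the order hPSC, ectoderm, endoderm, mesoderm, and every neighbouring pair in it passed the test. The fall was 1.41 on the log2 scale in ectoderm (SE 0.33, edgeR adjusted p = 0.00265), 2.67 in endoderm (SE 0.37, adjusted p = 8.81e-05) and 5.72 in mesoderm (SE 0.47, adjusted p = 3.76e-07). The ectoderm call was lost without ectoderm repeat 2 (fell by 1.06, adjusted p = 0.0864) and with a trend on transcript length removed (fell by 0.62, adjusted p = 0.132). Between ectoderm and endoderm the difference of 1.25 (SE 0.36, adjusted p = 0.00686) was lost without ectoderm repeat 1 (1.07, adjusted p = 0.0601) or endoderm repeat 1 (1.19, adjusted p = 0.0731). SNHG15 and GPR176 were the most similar genes (r = 0.982 and 0.981).

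FRZB, the Frizzled-related protein also called SFRP3, moved in opposite directions. It had 626 and 316 counts in ectoderm and 127 and 104 in endoderm, against 9 and 3 in hPSC and 0 and 1 in mesoderm. The ectoderm and endoderm libraries lay far above the rest, at 428.4 ± 144 and 197.2 ± 27.9 CPM against 11.3 ± 8.48 in hPSC and 0.993 ± 1.40 in mesoderm (SD, n = 2 each). It rose by 4.84 on the log2 scale in ectoderm (SE 0.47, edgeR adjusted p = 2.43e-06) and by 4.48 in endoderm (SE 0.48, adjusted p = 8.64e-06). In mesoderm it fell, with a ratio of pooled CPM of 11.5 (95% exact interval 1.7 to 491, adjusted p = 0.0177). That call rests on 12 hPSC reads, and was lost without hPSC repeat 1 (adjusted p = 0.136), without mesoderm repeat 1 (adjusted p = 0.15) and with DESeq2 (adjusted p = 0.0889). Ectoderm and endoderm were not separated on the TMM scale (0.37, SE 0.34, adjusted p = 0.36), while with library totals they were (1.18, adjusted p = 0.0115). SH3PXD2B and NBPF3 had the most similar patterns (r = 0.964 and 0.961).

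**Figure D2:**
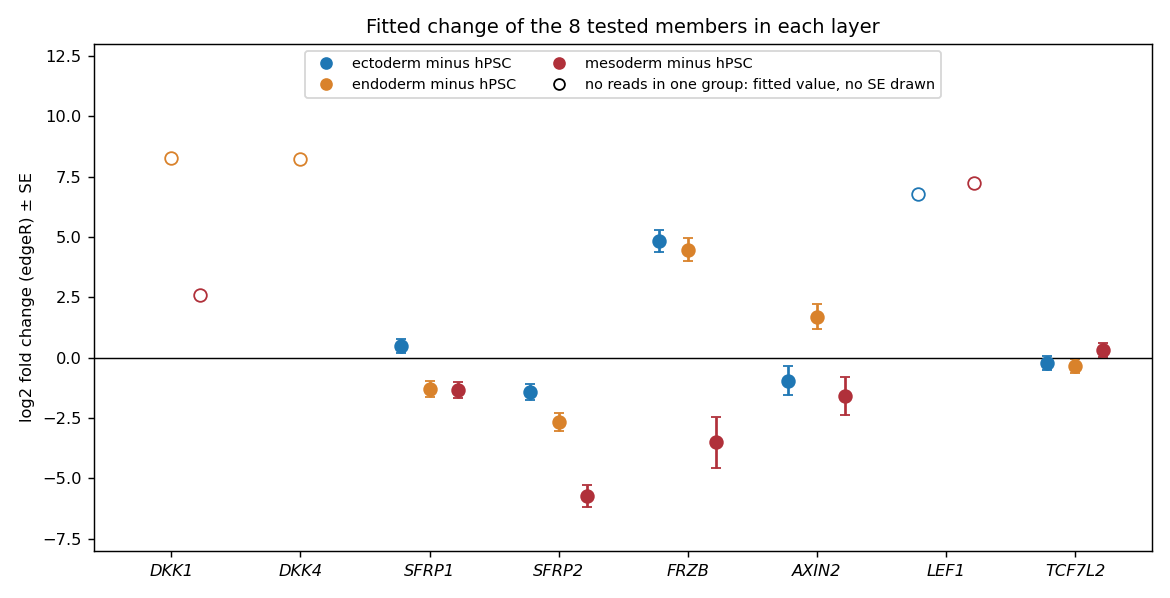
Fitted log2 fold change of the 8 tested genes in each layer against hPSC (vertical axis), with SE bars; open points have no reads in one of the groups, so their fitted size depends on the prior count. FRZB is above 0 in ectoderm and endoderm and below it in mesoderm, SFRP2 is below 0 in all 3 layers, and TCF7L2 stays near 0.

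AXIN2, a scaffold of the β-catenin destruction complex, was highest in the WNT3A-treated endoderm cultures. Endoderm had 15 and 16 counts, against 5 and 6 in hPSC, 10 and 5 in ectoderm, and 3 and 1 in mesoderm. In CPM the endoderm libraries (25.6 and 27.3) lay above all others, whose values ran from 1.99 to 10.7. It rose in endoderm by 1.70 on the log2 scale (SE 0.51, edgeR adjusted p = 0.0219), on few reads. The call was lost without hPSC repeat 1 (adjusted p = 0.103), endoderm repeat 1 (0.0873) or endoderm repeat 2 (0.128), with library totals (0.0561) and with DESeq2 (0.265). The gap to the other layers was larger: ectoderm minus endoderm was -2.65 (SE 0.47, adjusted p = 0.000196) and endoderm minus mesoderm 3.28 (SE 0.62, adjusted p = 0.000613). The hPSC, ectoderm and mesoderm levels were not told apart (adjusted p = 0.196, 0.122 and 0.542). Its 61 reads fell on 7 transcripts, 2 of which match the reference, and the largest held 18. VENTX was the named gene most like it (r = 0.992).

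NKD1, which binds Dishevelled, and SP5, a transcription factor of the WNT response, had too few reads for the test. NKD1 had 5 and 8 counts in ectoderm, 5 and 5 in endoderm, 1 and 2 in hPSC, and 0 in both libraries of mesoderm. The ratio to hPSC was 3.08 in endoderm (95% exact interval 0.792 to 17.4) and 2.18 in ectoderm (0.599 to 11.9), so neither was separable from 1 at this depth. The mean level was 1.05-fold the mesoderm floor in ectoderm and 1.43-fold in endoderm. Ectoderm repeat 1 (4.23 CPM) lay under that floor of 5.95 CPM, and the few reads carry counting error of their own, so these are no lower bounds. SP5 counts were 5 and 2 in endoderm, 1 and 1 in ectoderm, and 0 in the other 4 libraries. Its mean endoderm level was 1.03-fold the hPSC floor of 5.78 CPM. Endoderm repeat 2 (3.41 CPM) lay under that floor, so this is no lower bound either. The ratio of endoderm to ectoderm was 6.42 (95% exact interval 1.22 to 63.3). In CPM both genes were highest in endoderm, for NKD1 by a small margin (8.53 and 8.54 against 4.23 and 8.27 in ectoderm).

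LEF1, a DNA-binding partner of β-catenin, was read in ectoderm and mesoderm. It had 27 and 24 counts in the ectoderm libraries, 14 and 16 in mesoderm, and 0 in all 4 hPSC and endoderm libraries. Ectoderm stood at 23.8 ± 1.38 CPM and mesoderm at 29.1 ± 3.82 CPM (SD, n = 2). The ectoderm level was at least 4.13-fold above hPSC (edgeR adjusted p = 0.00062) and at least 4.65-fold above endoderm (adjusted p = 0.000515). The mesoderm level was at least 5.03-fold above hPSC (adjusted p = 0.000465) and at least 5.67-fold above endoderm (adjusted p = 0.000497). Ectoderm and mesoderm were not separated (log2 difference -0.47, SE 0.40, adjusted p = 0.378). LEF1 thus had no reads in endoderm, the group in which AXIN2, DKK1 and DKK4 were highest. MBNL2 and IGFBP5 were most similar (r = 0.992 and 0.989).

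Its 81 reads fell on 2 reference transcripts that both hold the reference first coding exon and differ by the 41-base exon printed above. In GENCODE 29 coding ends inside that exon where it is present, and in the last exon where it is absent. It was held by 14 of 27 and 12 of 24 counts in ectoderm (51.9% and 50.0%), and by 5 of 14 and 10 of 16 in mesoderm (35.7% and 62.5%). The mesoderm libraries lay on both sides of the ectoderm ones, and the share could not be compared with hPSC or endoderm, which had no reads.

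TCF7L2, the other TCF family member described, was found in all libraries. It had 101 and 118 counts in mesoderm, 188 and 171 in ectoderm, 72 and 83 in hPSC, and 53 and 53 in endoderm. In CPM the order was mesoderm (190.2 and 234.2), ectoderm (159.2 and 176.8), hPSC (138.6 and 147.7) and endoderm (90.5 and 90.4), without overlap. No comparison with hPSC was called on the TMM scale: the change was -0.21 in ectoderm, -0.34 in endoderm and 0.32 in mesoderm (edgeR adjusted p = 0.586, 0.454 and 0.427). With a trend on transcript length removed, the ectoderm change was -1.43 and was called (adjusted p = 0.00134). That step used the mean transcript length of each gene, weighted by counts. For TCF7L2 this includes 2 assembled pieces of 40270 and 41095 bases with 81 and 78 reads, while its most abundant transcript had 3883 bases. The part of these pieces in the values with the length trend removed was not tested. Endoderm minus mesoderm was -0.66 (SE 0.31, adjusted p = 0.0882), which passed with library totals as the scale (-1.26, adjusted p = 0.00234), with only the 4 libraries compared (-0.76, adjusted p = 0.00383), without hPSC repeat 1 (adjusted p = 0.0257) and without hPSC repeat 2 (adjusted p = 0.0247). Ectoderm minus mesoderm was -0.53 (adjusted p = 0.172) and passed with the length trend removed (-1.25, adjusted p = 0.00314), with only the 4 libraries compared (-0.55, adjusted p = 0.0274) and without hPSC repeat 1 (-0.52, adjusted p = 0.0495). Ectoderm minus endoderm was 0.13 (adjusted p = 0.72), but 0.95 with library totals (adjusted p = 0.00628) and -1.37 with the length trend removed (adjusted p = 0.00103), so its direction depends on the scaling. PRRG4 and CACNG4 had the most similar patterns (both r = 0.966).

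Its 839 reads were spread over 53 transcripts. Of these reads, 217 lay in 5 assembled pieces that lack an exon shared by the other 48 transcripts, and such pieces held 9.43% of the reads in endoderm against 26.1% in hPSC, 27.1% in ectoderm and 32.2% in mesoderm (means of 2 libraries, exact permutation p = 0.0667). The 622 other reads were used for the exon shares. A count there means a read assigned to a transcript that holds the exon, not a read seen to cover it. Differences among the 4 groups were tested with an exact permutation test of F over all partitions of 8 libraries into pairs, whose smallest p is 0.00952. Of 11 forms tested 0 passed after Benjamini-Hochberg adjustment, and 3 had an unadjusted p under 0.05.

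The 69-base exon, near the start of the gene, was held by 39.4% and 47.0% of counts in mesoderm, 27.1% and 33.3% in endoderm, 25.5% and 32.2% in ectoderm, and 20.0% and 23.1% in hPSC. Mesoderm libraries lay above all others, and hPSC libraries below (exact permutation p = 0.0381, adjusted p = 0.14). The TCF7L2 51-base exon, near the end of the coding part, ran the other way. Its shares were 19.0% and 16.9% in mesoderm, 27.7% and 26.1% in endoderm, 22.7% and 26.9% in ectoderm, and 31.9% and 34.9% in hPSC (exact permutation p = 0.019, adjusted p = 0.14). The hPSC libraries were the highest and the mesoderm libraries the lowest. Among transcripts that match a reference transcript these differences had p = 0.362 and 0.19 with the same exact test, and there the 69-base exon was highest in endoderm. With the separate assembly of each group, p was 0.124 and 0.0286.

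A last exon that begins at the reference site was held by 94.0% and 93.8% of counts in hPSC and 93.8% and 91.7% in endoderm, against 85.8% and 82.6% in ectoderm and 83.3% and 86.7% in mesoderm. The hPSC and endoderm libraries lay above the ectoderm and mesoderm ones (exact permutation p = 0.0381, adjusted p = 0.14). The longer donor form was in 88.4% of counts in mesoderm, 86.1% in hPSC, 80.2% in endoderm and 75.3% in ectoderm (means of 2 libraries, exact permutation p = 0.0571). The first 73-base exon was at nearly the same share everywhere, between 30.5% and 33.0% in the group means (exact permutation p = 0.99). The second of the pair was rarer, at 3.48% to 8.93% (exact permutation p = 0.248).

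**Figure D3:**
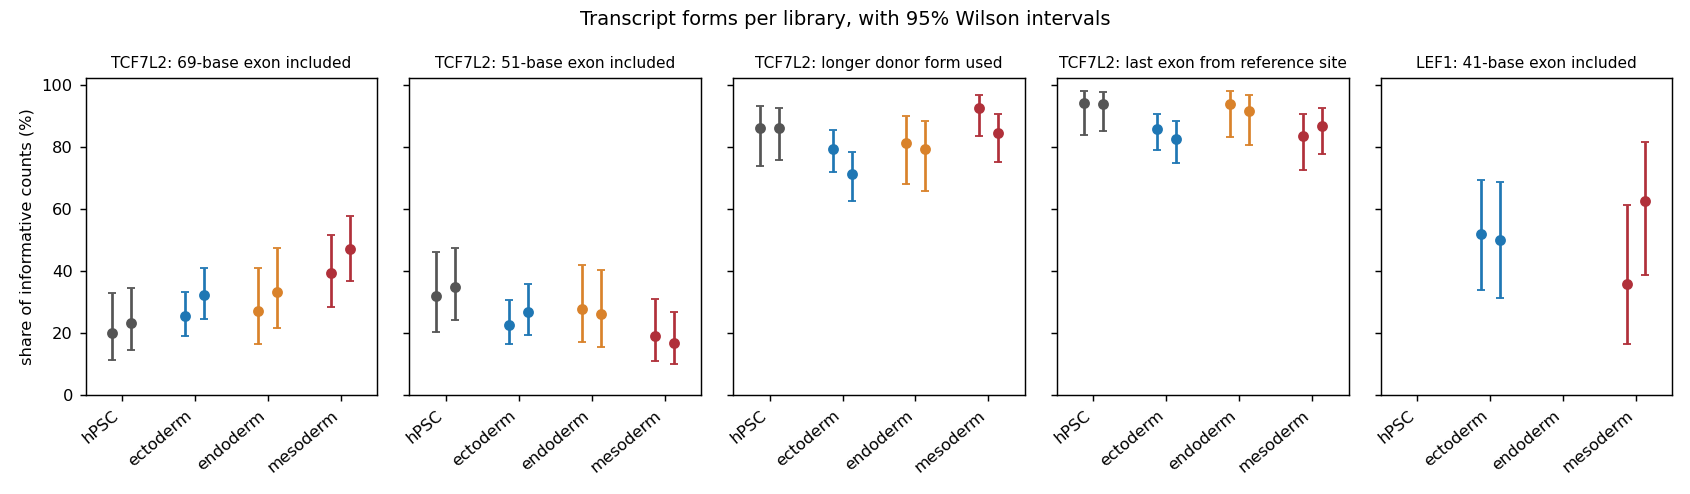
Share of informative counts (vertical axis, %) with each form, per library, with 95% Wilson intervals that cover counting error only; 4 panels are TCF7L2 and the last is LEF1, which has no reads in hPSC or endoderm. The 69-base exon is highest and the 51-base exon lowest in mesoderm, while intervals of single libraries overlap widely.

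In the test of transcript choice within genes, only TCF7L2 had at least 2 transcripts past the filter, 3 in all. It was called between endoderm and mesoderm alone (diffSpliceDGE adjusted p = 0.0374), where 9.93% of the 2638 genes tested were called. In the comparisons with hPSC 5.84% (ectoderm), 4.97% (endoderm) and 6.97% (mesoderm) of genes were called, and ectoderm gave 14.7% against endoderm and 6.03% against mesoderm. Of its 3 transcripts 2 are pieces without the shared exon, which lay lower in endoderm. The call was lost when any single ectoderm, endoderm or mesoderm library was left out (adjusted p = 0.0875 to 0.353) and in the fit over 44 transcripts (adjusted p = 0.753).

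Directly between layers, 6 of the 8 tested genes differed between ectoderm and endoderm (63.1% of all genes tested), 3 between ectoderm and mesoderm (35.4%) and 6 between endoderm and mesoderm (47.1%). The first held 3 higher and 3 lower genes (33.1% and 29.9% of all genes), the second 3 higher and 0 lower (18.2% and 17.2%), and the last 5 higher and 1 lower (23.2% and 23.9%). With a single read in mesoderm, the ratio of pooled CPM of FRZB over mesoderm was 454 in ectoderm (95% exact interval 81.3 to 17900) and 204 in endoderm (36.3 to 8090; edgeR adjusted p = 3.4e-07 and 5.75e-07). SFRP2 was higher than in mesoderm by 4.30 in ectoderm (SE 0.47) and by 3.05 in endoderm (SE 0.51) on the log2 scale (adjusted p = 6.13e-06 and 0.000225).

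Other WNT pathway genes were counted in 5 lists of known roles, against the shares of all genes tested that were higher and lower in ectoderm (23.8% and 24.8%), endoderm (13.4% and 13.7%) and mesoderm (16.9% and 18.2%). Of 40 ligands and receptors 14 were tested, of which 8 rose and 1 fell in ectoderm, 3 rose and 1 fell in endoderm, and 8 rose and 2 fell in mesoderm. A gene can pass the low-count filter through the group in which it is high, so the counts cover only genes that passed and show nothing particular to a list. WNT6 had 70 and 69 counts in mesoderm and 0 in the other 6 libraries, and the receptor FZD5 rose in ectoderm by 5.00 on the log2 scale (SE 0.62, edgeR adjusted p = 2.4e-05). Of 19 other extracellular inhibitors 7 were tested, and 2 rose in each layer, while 1 fell in ectoderm and 2 in mesoderm. CER1, a secreted antagonist of WNT, BMP and Nodal ligands, had 974 and 1181 counts in endoderm and 0 elsewhere. It is also on the endoderm marker list above. DKK3 rose in endoderm by 2.73 (SE 0.40, adjusted p = 0.000151) and SHISA2 in ectoderm by 4.69 (SE 0.57, adjusted p = 1.97e-05).

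Inside the cell, 15 of 18 genes were tested from a list of cytoplasmic pathway genes that also holds the ligand secretion genes PORCN and WLS. Of the 15, 3 rose and 3 fell in ectoderm and likewise in endoderm, while mesoderm had 2 of each. PORCN and WLS were among the 3 that rose in endoderm. The 6 of 15 called in ectoderm lie under the 48.6% called over all genes. WLS, which carries WNT ligands to the cell surface, rose by 6.78 in endoderm (SE 0.51, edgeR adjusted p = 6.19e-07) and by 6.37 in mesoderm (SE 0.52, adjusted p = 3.51e-07). Of 16 nuclear partners 13 were tested, where ectoderm had 2 higher and 3 lower (also under 48.6%), endoderm 1 higher and 2 lower, and mesoderm 1 of each. The co-repressor gene TLE4 rose in ectoderm by 3.03 (SE 0.35, adjusted p = 1.38e-05) and in mesoderm by 2.26 (SE 0.36, adjusted p = 0.000234). Of 16 other target genes 10 were tested, and 5 rose and 2 fell in endoderm, against 3 and 1 in ectoderm and in mesoderm. EOMES, MIXL1 and LGR5 passed the filter through endoderm alone, and EOMES and MIXL1 had 0 or 1 count in every other library. MYC, a growth regulator often listed as a WNT target, fell by 3.43 in ectoderm (SE 0.33, adjusted p = 1.92e-06), fell by 2.06 in endoderm (SE 0.33, adjusted p = 0.000283) and fell by 2.33 in mesoderm (SE 0.32, adjusted p = 6.4e-05). LGR5 had 22 and 15 counts in endoderm, 1 and 5 in mesoderm, 0 and 1 in ectoderm, and 0 in hPSC.

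**Figure D4:**
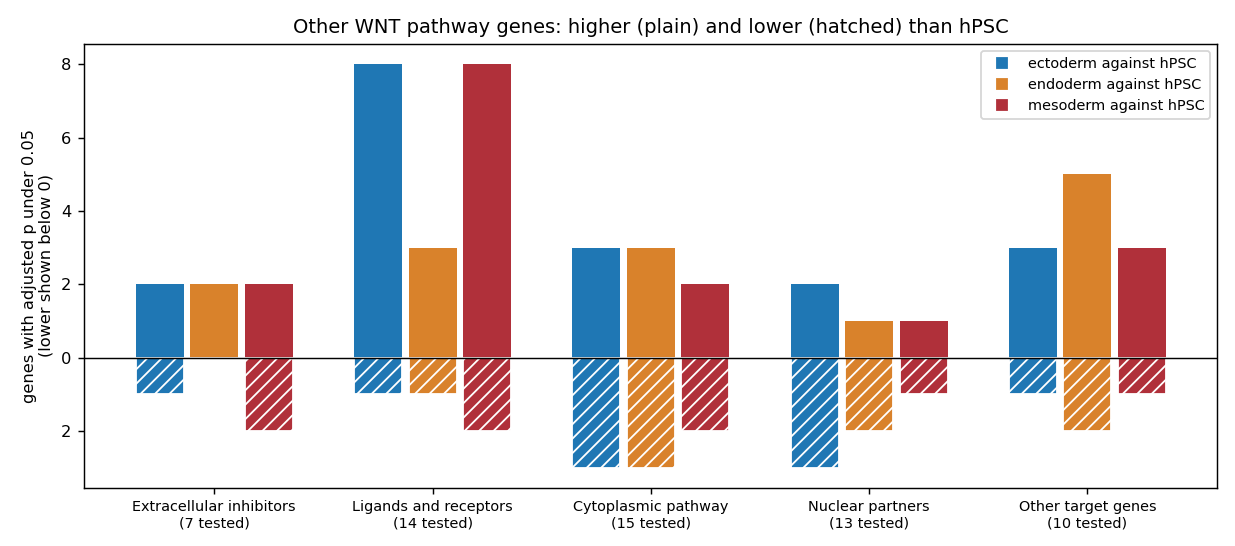
Number of other WNT pathway genes with adjusted p under 0.05 against hPSC (vertical axis), higher above the line and lower below it, per list and layer. Ligands and receptors have 8 higher genes in ectoderm and in mesoderm and 3 in endoderm, while other target genes have 5 in endoderm.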

How the data were processed

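The deposited values are whole read counts per assembled transcript, per the file headers, with no normalization. The 2 endoderm columns were listed under the unit expected counts in form only: the authors' deposited values there are whole too, and nothing was rounded. minimap2 and StringTie are named in the submitters' processing notes; the counter, versions and use of strand are not given in the sources used here. Gene counts sum the transcripts given that gene name in the assembly, on GRCh38. Tests used edgeR 4.0.16 in R 4.3.3 (TMM, filterByExpr at a minimum count of 10, quasi-likelihood test over all 8 libraries) and, as an alternative, DESeq2 1.42.0; both are two-sided. SE is the log2 change divided by the square root of F. Bounds set the mean CPM of the higher group against 3 counts per library in the other, with no counting error on that mean. The edgeR fit was tested on simulated data. All 10 genes are described; from each pathway list and layer, genes were taken from the 2 largest changes with adjusted p under 0.05 and 10 CPM or more in each library of the group with the higher level; the 2 most similar genes per member have the highest r. Members and lists were chosen with earlier results of these data known. TCF7L2 donor, acceptor, frame, first-exon and intron-piece forms were added after the structures and values were seen. Repeat numbers did not pair the libraries. Short-read libraries were not analysed here.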

Additional observations from a re-analysis of the deposited data

Results flagged for a closer look

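Tests of the difference between layers, which compare 2 layers' effects under the same contrast with hPSC, were passed by 15 results (edgeR, log2 scale, first layer minus second). Between ectoderm and endoderm these were DKK1 at -8.28, DKK4 at -8.25, SFRP1 at 1.78, SFRP2 at 1.25, AXIN2 at -2.65 and LEF1 at 6.77. Between ectoderm and mesoderm they were SFRP1 at 1.83, SFRP2 at 4.30 and FRZB at 8.34. Between endoderm and mesoderm they were DKK1 at 5.69, DKK4 at 8.25, SFRP2 at 3.05, FRZB at 7.98, AXIN2 at 3.28 and LEF1 at -7.25. Where a group has no reads, as for DKK4 and LEF1 and for DKK1 in ectoderm, the fitted size depends on the prior count and is no bound. The amnion and trophoblast markers that were high in the mesoderm libraries stand beside all 9 differences with mesoderm, and their part was not tested.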

How the results depend on the processing

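Of 28 calls for the tested genes, 22 held under every alternative run and none changed direction; the 6 others are given beside their results. TCF7L2 between ectoderm and endoderm, not called at 0.13, reversed to -1.37 with the length trend removed and to -1.36 with the length trend and the replicate block (the cause was not tested). Leaving out 1 library at a time, members called ran from 2 to 4 in ectoderm, 4 to 6 in endoderm and 2 to 4 in mesoderm against hPSC, and the transcript choice calls from 0 to 1. The transcript choice call was also lost with a looser low-count filter, which kept 44 of the 53 TCF7L2 transcripts (0), and with the replicate block (0). Over all genes, leave-one-out counts ran from 3293 to 5960 in ectoderm (5274 with all libraries), 1455 to 4067 in endoderm (2946) and 2012 to 5084 in mesoderm (3810) against hPSC, from 5331 to 8205 between ectoderm and endoderm (6841), 1780 to 5631 between ectoderm and mesoderm (3839) and 3390 to 6487 between endoderm and mesoderm (5107). DESeq2 called 2777, 1589 and 2047 genes for the layers against hPSC, 1689 between ectoderm and mesoderm and 3172 between endoderm and mesoderm, and the 4 libraries alone gave 2468 for mesoderm against hPSC. Scaling by library totals moved the median log2 change of all genes from -0.01 to 0.43 in ectoderm, -0.13 to -0.48 in endoderm and 0.01 to 0.25 in mesoderm, and the share of higher calls from 49% to 68.2%, 49.5% to 31% and 48.1% to 59.9%; between layers it went from 52.5% to 72.9%, 51.3% to 63.3% and 49.3% to 26.8%. Repeat numbers did not pair the libraries (correlations of deviations from -0.034 to 0.150); with the replicate block the members called stayed at 3, 6 and 4 against hPSC. No form of TCF7L2 passed adjustment under any alternative, while 3 of 11 had an unadjusted exact permutation p under 0.05 in the main counts, 0 in reference-matching transcripts, 3 in transcripts with at least 3 counts and 5 in the group assemblies. Depth limits NKD1 and SP5, with at most 8 counts in a library.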

Other observations

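Reads listed under a member's symbol only by position, and not counted above, came to 213 in 16 rows for TCF7L2, 6 for NKD1, 5 for SFRP1 and 3 for LEF1. TCF7L2 had 55 and 46 of them in ectoderm, 26 and 29 in mesoderm, 22 and 18 in hPSC, and 12 and 5 in endoderm. Counting all rows listed under the symbol gave a TCF7L2 difference of -0.75 between endoderm and mesoderm (edgeR adjusted p = 0.0432), and leaving out the pieces that lack the shared exon gave -0.25 (adjusted p = 0.546). Of the 9 SP5 reads, 6 fell on a reference transcript that starts at chr2:170715908 and 3 on the one that starts at chr2:170715332.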
